A study of Mus musculus with 23 samples.

Results

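The measurement described here is the effect of organ culture on the mouse testis transcriptome, averaged over 3 stages of the first spermatogenic wave. Explants of fresh testes of 6.5 dpp (days postpartum) CD-1 mice, a wild-type outbred stock, were grown in vitro and compared by RNA sequencing with fresh testes of the same age. The libraries follow a rule of the design: all fresh libraries with an age-matched partner were taken, 16 of the 22 distinct libraries in the count table. They comprise 3 libraries of explants cultured for 4 days (D4) and 3 of testes at 10.5 dpp, 2 of explants cultured for 16 days (D16) and 3 of testes at 22.5 dpp, and 3 of explants cultured for 30 days (D30) and 2 of testes at 36.5 dpp. The medium of the explants held knockout serum replacement (KSR) and retinol, and none of the groups carries a transgene or a deleted gene. Each cultured replicate was a pool of 12 explants, from which the necrotic centre had been cut away before RNA extraction, so the cultures describe the surviving rim of the tissue and the controls the whole testis. The 6.5 dpp libraries did not enter the fit and serve below only as levels of the starting tissue. Of the 5 distinct ones 2 are of fresh testis and 3 of testis after controlled slow freezing, so frozen tissue stands in part for the start of fresh explants.

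A testis in culture loses its blood flow, its innervation and its pituitary hormones at once. Cells short of oxygen stabilise the hypoxia-inducible factors, which bind short DNA sites and raise genes of glucose uptake, glycolysis and vessel growth. Wounded tissue raises acute phase proteins, chemokines and matrix-remodelling enzymes, and resident macrophages can be replaced or can change their state. Leydig cells of the interstitium make androgens under luteinising hormone, and germ cells pass from spermatogonia through meiosis to spermatids during the ages covered here.

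Counts on genes ran from 31634658 to 69029328 per library. Levels are in CPM, counts relative to the library total after TMM scaling, and fold changes are log2 values of culture over age-matched testis with their standard error (SE). Between replicates of D4 and of 10.5 dpp the rank correlation of log2 CPM was 0.994 or higher. It was 0.962 between the D16 libraries, where D16 replicate 1 lay closest to D30 replicate 2 and D16 replicate 2 closest to D30 replicate 3. Replicate 2 at 22.5 dpp reached 0.977 at most with its own group. Markers of late spermatids moved with the stages: their summed level was 97.8 to 101 CPM at D4 and 92.3 to 100.3 at 10.5 dpp, 380 to 918 at D16 and 970 to 2412 at 22.5 dpp, and 1114 to 4236 at D30 and 46400 to 49861 at 36.5 dpp. In bulk tissue fewer cells of a type and less RNA per cell cannot be told apart. The median of all 19098 genes tested was -0.07 in the average effect, and with library size alone as the scale it was 0.17 (0.59 at D30). Changes at D30 are given on the TMM scale, where the median of all genes at D30 was -0.03, and they depend on that choice.

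Averaged over the 3 stages, 286 genes were higher in culture and 188 lower by at least 4-fold at an adjusted p of 0.001 or less (edgeR quasi-likelihood F test, Benjamini-Hochberg adjustment), which is 1.5% and 0.984% of the genes tested. An average can hide a stage, so each gene was also called at every stage if it moved by at least 2-fold in the same direction with an adjusted p under 0.05 at D4, at D16 and at D30. By this rule 272 genes rose at every stage (1.42% of those tested) and 91 fell (0.476%). Of the 286 genes with a higher average, 161 were called at all 3 stages, 121 at 2 stages and 4 at a single stage. Of the 188 with a lower average these numbers were 52, 87 and 49, and no gene of either set was called the other way at a stage. Within a single stage 741 genes (3.88%) were higher and 552 (2.89%) lower at D4, 1851 (9.69%) and 1720 (9.01%) at D16, and 4873 (25.5%) and 5659 (29.6%) at D30. Counts of list members at a single stage, given below, are to be read beside these shares of all genes.

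The median log2 fold change of the genes that rose at every stage was 1.70 at D4, 1.96 at D16 and 2.84 at D30, and for 179 of the 272 the D30 value was the largest. The 91 lower genes had medians of -1.91, -1.92 and -2.49. D30 effects were more widely spread over all genes, and a difference between stages passed the test for 137 of the 272 and 26 of the 91, against 50% of all genes tested (edgeR F test over the 3 contrasts, adjusted p under 0.05). Culture and control libraries did not overlap at any stage for 270 of the 272 higher genes and 84 of the 91 lower genes, against 7.82% and 4.39% of all genes tested. The rule selects for this separation, so these counts describe it and add no evidence. At the 2-fold limit, a log2 size of 1, the smallest stage value had a size of 1.0018 for Ccdc69, the last higher gene inside the rule, and of 0.99994 for Bcl6, the first outside it. Among the lower genes it was 1.02 for Cd86 inside and 0.986 for Egflam outside. Across all genes the D4 effect was only weakly related to the later effects (Spearman rho 0.142 with D16 and 0.154 with D30, a description across genes that are not independent), while D16 and D30 shared rho 0.705. The summed late spermatid level, lower in culture at both later stages, moves with that value, and their part in it was not tested.

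**Figure D1:**
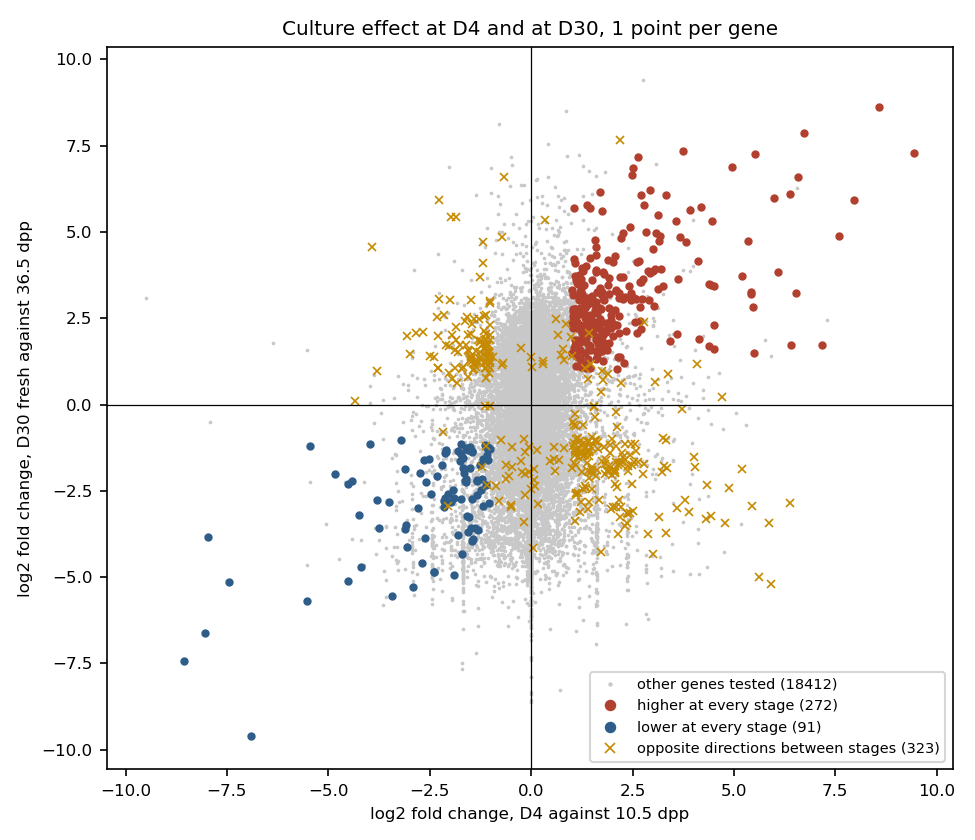
Log2 fold change of each gene at D4 against 10.5 dpp (x axis) and at D30 against 36.5 dpp (y axis), 1 point per gene tested. Red points are the 272 genes higher at every stage, blue points the 91 lower at every stage, crosses the 323 genes called higher at 1 stage and lower at another, and grey points the other 18412; the cloud of grey points is tall and narrow, since D30 effects spread more widely than D4 effects.

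Of 24 tested genes of a list of the hypoxia response, 8 rose at every stage (Adm, Vegfa, Vldlr, Egln3, Car9, Slc2a1, Ndrg1 and Pgk1) and none fell at every stage, and the median member was 1.15 higher on the log2 scale against -0.07 for all genes. The lists were drawn up with earlier results of these data known, and some hold genes the paper names, such as Vegfa and Vldlr here. Counts and medians of lists are therefore descriptions and no independent evidence. At the single stages 11 members of the hypoxia list rose at D4, 15 at D16 and 14 at D30, where 1 fell. The promoters of 4 of these genes are shown because each holds the core of the hypoxia response element, ACGTG or its reverse complement CACGT, set in capitals. They run from 250 bases before to 50 after the RefSeq start site of the gene (build GRCm38.p6) and are written 5′ to 3′ on the strand of the gene. Egln3 lies at chr12:54203825-54204124 (minus strand), Slc2a1 at chr4:119108495-119108794 (plus strand), Pgk1 at chrX:106186850-106187149 (plus strand) and Car9 at chr4:43506776-43507075 (plus strand).
Egln3: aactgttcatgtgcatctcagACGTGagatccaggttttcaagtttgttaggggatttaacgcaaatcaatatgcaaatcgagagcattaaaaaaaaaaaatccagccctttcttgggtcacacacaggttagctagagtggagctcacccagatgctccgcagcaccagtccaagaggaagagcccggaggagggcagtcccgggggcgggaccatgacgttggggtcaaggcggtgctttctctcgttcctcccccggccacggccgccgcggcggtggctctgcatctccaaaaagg
Slc2a1: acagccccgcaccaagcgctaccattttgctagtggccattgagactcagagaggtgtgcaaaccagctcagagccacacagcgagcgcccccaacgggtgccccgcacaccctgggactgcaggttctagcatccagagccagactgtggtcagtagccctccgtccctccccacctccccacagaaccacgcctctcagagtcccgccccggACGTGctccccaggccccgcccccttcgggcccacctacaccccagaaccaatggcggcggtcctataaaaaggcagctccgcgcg
Pgk1: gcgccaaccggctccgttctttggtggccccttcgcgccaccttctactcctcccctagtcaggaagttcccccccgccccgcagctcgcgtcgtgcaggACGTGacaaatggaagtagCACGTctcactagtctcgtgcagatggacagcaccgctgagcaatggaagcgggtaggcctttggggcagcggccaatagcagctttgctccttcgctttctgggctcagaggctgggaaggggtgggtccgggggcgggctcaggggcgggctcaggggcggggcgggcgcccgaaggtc
Car9: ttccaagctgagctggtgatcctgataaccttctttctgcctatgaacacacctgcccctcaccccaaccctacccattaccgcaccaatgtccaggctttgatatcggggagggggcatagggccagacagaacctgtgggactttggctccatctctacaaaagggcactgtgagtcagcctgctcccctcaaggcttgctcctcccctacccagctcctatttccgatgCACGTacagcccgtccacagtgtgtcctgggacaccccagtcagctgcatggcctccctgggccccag
The core begins 229 bases before the start in Egln3, 36 in Slc2a1, 150 and 131 in Pgk1 and 18 in Car9. Such a short word is common: 19.6% of all 32851 promoters given and 23% of those of the tested genes hold it on either strand. Counted by gene, 26.1% of the tested genes with a promoter in the table held the core, 21.4% of those higher and 17.2% of those lower at every stage. Of the 8 hypoxia genes called at every stage 7 had a promoter and 5 of these held the core, as did 18 of 23 over the whole hypoxia list, so the called members were no richer in it than the list. A match describes letters and not a bound site.

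Adm (chr7:110627657-110629820) encodes the vasodilator peptide adrenomedullin. Its level was 44.1, 34.5 and 25.9 CPM at D4 against 1.93, 1.80 and 2.01 at 10.5 dpp, 30.8 and 20.8 at D16 against 0.706, 1.25 and 0.548 at 22.5 dpp, and 21.9, 21.9 and 12.8 at D30 against 0.484 and 0.234 at 36.5 dpp. The lowest culture stood at 12.8 CPM and the highest control at 2.01, so the groups did not overlap at any stage. The average log2 fold change was 4.94 ± 0.24 (adjusted p = 1.2e-08, edgeR).

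Vegfa, the main growth factor of blood vessels, was at 309, 286 and 229.5 CPM at D4 and 29.7, 43.2 and 29.5 at 10.5 dpp, at 129.5 and 177 at D16 and 11.2, 15.8 and 9.18 at 22.5 dpp, and at 104, 101 and 102 at D30 and 5.54 and 8.46 at 36.5 dpp. Both series declined with age and the cultures stayed above the controls throughout, with an average of 3.52 ± 0.16 (adjusted p = 7.37e-09, edgeR) and stage values of 3.01 ± 0.25 (D4), 3.66 ± 0.27 (D16) and 3.87 ± 0.31 (D30). The 4 libraries of 6.5 dpp testis that were not set aside below, 1 fresh and 3 slow-frozen, held 28.3 to 37.2 CPM, so the D4 level lay above these libraries and the later control levels below them, whereas the library set aside held 158 CPM. Vldlr, a lipoprotein receptor, reached 39.2 and 45.2 CPM at D16 against 1.53, 1.48 and 1.40 at 22.5 dpp. Its effect was largest at that stage (4.84 ± 0.16, against 3.13 ± 0.14 at D4 and 3.34 ± 0.18 at D30), and the difference between stages passed the test (adjusted p = 0.000135, edgeR F test over the 3 contrasts).

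Egln3, an oxygen-sensing prolyl hydroxylase that is itself a target of the pathway, was at 27.1, 32.8 and 26.3 CPM at D4 against 6.42, 6.39 and 6.46, at 24.5 and 18.2 at D16 against 1.65, 2.35 and 2.26, and at 14.4, 16.1 and 9.69 at D30 against 1.94 and 1.21 in the age-matched testes. Slc2a1, the glucose transporter GLUT1, was at 91.7, 108 and 108 CPM against 28.6, 39.0 and 28.9, at 66.9 and 78.3 against 19.6, 27.4 and 23.2, and at 66.3, 52.2 and 68.2 against 11.3 and 14.1. For both genes every culture lay above every control of its age, with averages of 2.87 ± 0.16 and 1.87 ± 0.12 (adjusted p = 2.77e-08 and 8.12e-08, edgeR). Car9, a carbonic anhydrase of the cell surface, was a low gene: 1.73, 1.99 and 1.74 CPM at D4 against 0.735, 0.817 and 1.02, 1.03 and 1.05 at D16 against 0.294, 0.254 and 0.171 and 1.13, 0.806 and 1.45 at D30 against 0.0880 and 0.0779, where the 36.5 dpp libraries together had 4 counts. The D30 ratio from counts was 13.8 (exact interval 5.27 to 51.3, counting error only). Its D4 effect of 1.08 ± 0.26 lost the call when any of 3 libraries was left out (D4 replicate 2, 10.5 dpp replicate 1 or 2), with values of 1.01, 0.975 and 1.04. Pgk1, the glycolytic enzyme phosphoglycerate kinase, rose by 1.59 ± 0.20, but without 36.5 dpp replicate 2 its D30 value was 0.791, below the 2-fold limit, and its counts are uncertain because the gene has near-identical retrotransposed copies. Not all members held their direction. Ldha, lactate dehydrogenase A, was 1.38 ± 0.37 at D4 (adjusted p = 0.0295), -0.68 ± 0.41 at D16 (adjusted p = 0.214) and -1.37 ± 0.40 at D30 (adjusted p = 0.00789, all edgeR).

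**Figure D2:**
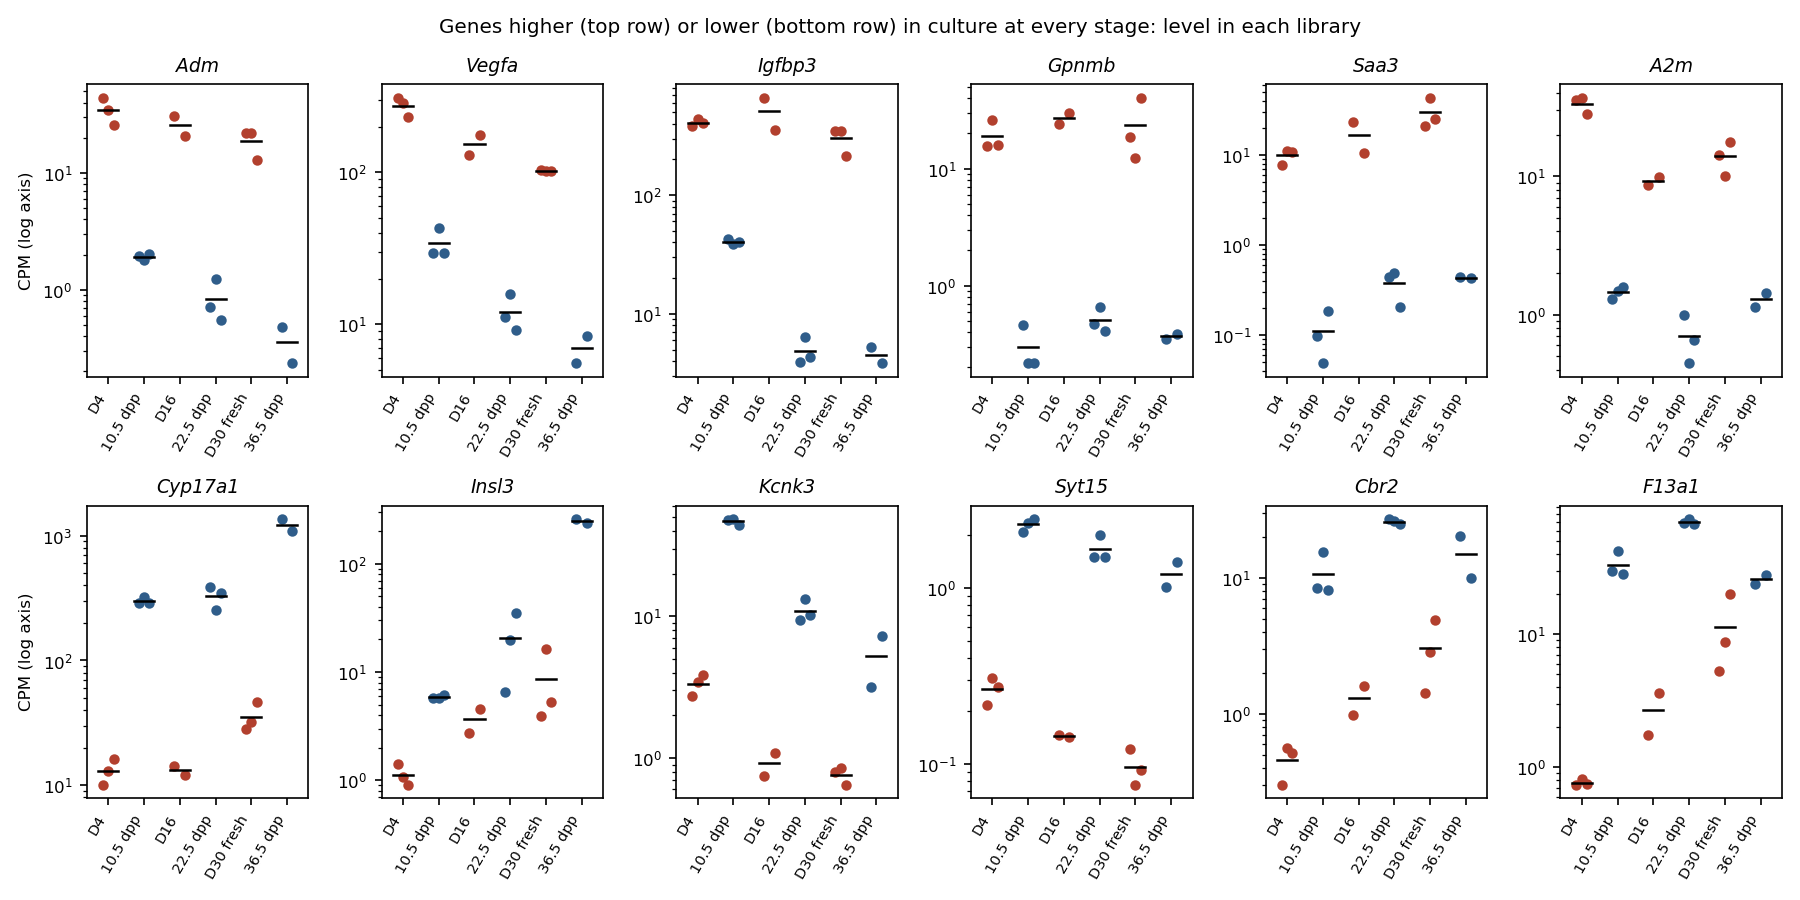
Level in CPM (log axis) of 6 genes higher and 6 genes lower in culture at every stage, 1 point per library, red for cultures and blue for age-matched testes, with a bar at the group mean. In the upper row every culture lies above every control of its age; in the lower row every culture lies below, with the F13a1 points of D30 (up to 19.9 CPM) and 36.5 dpp (from 23.8 CPM) among the closest.

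Of the 16 tested genes of an acute phase list 8 rose at every stage, none fell at every stage, and the median member was 2.03 higher on the log2 scale on average. They are Serpina3n, Serpina3m, Serpina3g, Saa3, A2m, Itih4, Osmr and Socs3: protease inhibitors and carriers released in inflammation, the oncostatin M receptor, and the feedback inhibitor of cytokine signalling. In single stages 11 members rose at D4, 9 at D16 and 14 at D30, where 2 fell. Serpina3n (chr12:104406646-104414334), a serine protease inhibitor, was at 118, 161 and 148 CPM at D4 against 0.561, 0.961 and 0.711 at 10.5 dpp, at 71.9 and 114 at D16 against 6.85, 14.6 and 7.67 at 22.5 dpp, and at 156, 142 and 209 at D30 against 6.38 and 5.07 at 36.5 dpp. The cultures ran from 71.9 to 209 CPM over all stages, whereas the controls rose between 10.5 and 22.5 dpp, and the effect was 7.59 ± 0.39 (D4), 3.25 ± 0.33 (D16) and 4.89 ± 0.41 (D30) (difference between stages, adjusted p = 9.88e-05, edgeR).

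Saa3, serum amyloid A3, was below 0.5 CPM in all 8 controls and between 7.68 and 43.5 CPM in all 8 cultures, with an average of 5.97 ± 0.32 and stage values of 6.37 ± 0.51 (D4), 5.44 ± 0.48 (D16) and 6.10 ± 0.58 (D30) (difference between stages, adjusted p = 0.447, edgeR). A2m, a broad protease trap, was at 35.4, 36.9 and 28.2 CPM at D4 against 1.30, 1.49 and 1.59 at 10.5 dpp and averaged 3.90 ± 0.19. Serpina3m had 3 counts in the 3 libraries at 10.5 dpp together and 5.28, 6.42 and 4.89 CPM at D4, a ratio of 285 with an exact interval of 97.2 to 1380 that covers counting error only. The Serpina3 genes are a cluster of close paralogs on chromosome 12, and reads could be split between them in counting: 5 of 9 tested members were higher at every stage. Itih4 and Serpina3g lost the call in 3 and 5 of the 16 fits that each left a library out, all at D16 or D30, whereas Serpina3n, Serpina3m, Saa3, A2m, Osmr and Socs3 kept it in all 16. Serpina3n and Serpina3m lost it, with Itih4 and Serpina3g, when the 6.5 dpp and slow-frozen libraries entered the fit, which left 4 of the 8. Osmr averaged 1.86 ± 0.15 and Socs3 2.56 ± 0.15.

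Of 20 tested complement genes, 3 were higher at every stage, C3 and Cfi among them, none was lower at every stage, and the median was 1.25 on average. At single stages 7 members rose and 3 fell at D4, 7 rose and 2 fell at D16, and 12 rose at D30. C3, the central component, was at 54.8, 63.0 and 58 CPM at D4 against 2.75, 2.69 and 3.01 at 10.5 dpp, at 48.5 and 58.03 at D16 against 22.7, 22.4 and 22.9 at 22.5 dpp, and at 236, 130.5 and 183 at D30 against 11.5 and 20.9 at 36.5 dpp. Its effect of 4.38 ± 0.26 (D4), 1.23 ± 0.24 (D16) and 3.496 ± 0.29 (D30) differed between stages (adjusted p = 0.000114, edgeR). Cfi, the protease that cuts C3b, was at 48.7, 43.2 and 42.3 CPM at D4 against 22.1, 20.3 and 22.5, and the controls then fell to 0.660 and 0.584 CPM at 36.5 dpp while D30 stood at 28.8, 30.7 and 38.5, so that its effect rose from 1.05 ± 0.20 to 5.71 ± 0.31. Without D4 replicate 1 its D4 value was 0.993, and with library size alone as the scale Cfi lost the call and 1 member of the list kept it. C7 and C4b, later and early components of the cascade, show how an average can rest mostly on a single stage: C7 was 4.55 ± 0.24 at D4, 0.72 ± 0.23 at D16 and 1.67 ± 0.24 at D30, and C4b was 4.64 ± 0.31, -0.38 ± 0.29 (adjusted p = 0.316, edgeR) and 0.92 ± 0.29.

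Of 24 tested members of a list of cytokines and NF-kB targets, 6 rose at every stage: Ptgs2, Cxcl1, Cxcl2, Cxcl10, Ccl2 and Lif. None fell at every stage, and 10 were higher on average by the 4-fold rule (median 1.53). At single stages 10 members rose and 1 fell at D4, 10 rose at D16, and 18 rose and 1 fell at D30. Ptgs2 (chr1:150100031-150108234), the inducible enzyme of prostaglandin synthesis, had at most 3 counts in any of the 8 controls and was at 3.39, 5.11 and 3.32 CPM at D4, 1.81 and 2.08 at D16 and 2.14, 2.92 and 1.68 at D30. From counts the ratio to the control was 101 at D4 (exact interval 46 to 275), 72.1 at D16 (24.3 to 353) and 108 at D30 (19.2 to 4280). Cxcl1, which recruits neutrophils, was at 2.22, 2.58 and 2.20 CPM at D4 against 0.135, 0.0480 and 0.247 and at 3.65, 5.59 and 3.37 at D30 against 0.0440 and 0.117. Ccl2, which recruits monocytes, averaged 3.15 ± 0.33, with 2.91, 6.09 and 2.88 CPM at D30 against 0.0880 and 0.156 at 36.5 dpp; without D16 replicate 2 its D16 adjusted p was 0.058 (edgeR). Cxcl10 (D16 value 1.44 ± 0.49, adjusted p = 0.0406, edgeR) lost the D16 call in 11 of the 16 fits with a library left out, and Lif its D4 call in 3. Il33, an alarmin released from damaged cells, was 5.78 ± 0.34 at D4 and 1.86 ± 0.31 at D30 but 0.61 ± 0.28 at D16 (adjusted p = 0.106, edgeR), with 8.77 and 6.56 CPM at D16 and 6.03, 4.06 and 4.97 at 22.5 dpp.

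Of 22 tested genes of wound matrix 8 were higher at every stage and none lower at every stage, with a median of 1.71 on average. At single stages 15 rose and 1 fell at D4, 12 rose at D16 and 17 at D30. Those called at every stage include Mmp12, Spp1, Tnc, Timp1, Lox, Ccn1 and Ccn5. Mmp12 (chr9:7344397-7360461), the elastase of macrophages, was at 5.15, 8.21 and 4.46 CPM at D4, 17.3 and 9.58 at D16 and 12.8, 14.7 and 24.6 at D30, and at no more than 0.137 CPM in any control. It had 2 counts over the 3 libraries at 10.5 dpp and 2 over the pair at 36.5 dpp, which gives ratios of 448 (exact interval 124 to 3700) at D4 and 423 (117 to 3490) at D30, counting error only. Tnc, the matrix glycoprotein tenascin C, was at 31.0, 37.5 and 33.6 CPM at D4 against 1.26, 2.19 and 1.45 at 10.5 dpp and at 23.3, 15.5 and 11.3 at D30 against 4.66 and 5.61 at 36.5 dpp, an effect that shrank from 4.39 ± 0.33 to 1.70 ± 0.34. Timp1, an inhibitor of matrix metalloproteinases, averaged 2.60 ± 0.14 with 54.0, 54.2 and 53.4 CPM at D30 against 8.53 and 4.60. Spp1, the secreted phosphoprotein osteopontin, was at 75.5, 103 and 85.6 CPM at D4 against 11.6, 6.15 and 10.9 and spread widely at D30, where it was at 27.9, 35.0 and 171 against 5.67 and 4.52. Ccn5 and Ccn1 depended on single libraries: Ccn5 kept its call in 8 and Ccn1 in 14 of the 16 fits with a library left out, both losing it at D16.

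Plaur, the receptor of the urokinase plasminogen activator, was at 6.97, 9.25 and 9.88 CPM at D4 against 0.425, 0.432 and 0.618, at 7.85 and 5.93 at D16 against 0.412, 0.486 and 0.582 and at 5.38, 5.06 and 4.08 at D30 against 0.308 and 0.234. Its stage values were 4.13 ± 0.26 (D4), 3.80 ± 0.27 (D16) and 4.15 ± 0.34 (D30) (difference between stages, adjusted p = 0.662, edgeR). Gpnmb, a glycoprotein of macrophages and other lysosome-rich cells, was below 0.7 CPM in all controls and between 12.2 and 40.3 CPM in all cultures, an average of 5.88 ± 0.32. The summed level of the macrophage markers was 75.1 to 99.9 CPM at D4 and 179 to 239.6 at 10.5 dpp, 450.1 to 510 at D16 and 421 to 465 at 22.5 dpp, and 545 to 795 at D30 and 876 to 886 at 36.5 dpp. Of the 20 tested markers 1 rose and 7 fell at D4 (median -0.82), 3 rose and 4 fell at D16 (median -0.33), and 7 rose and 3 fell at D30 (median 0.73), where 25.5% of all genes rose and 29.6% fell. At every stage 1 (Cd14) rose and 1 (F13a1) fell, none was at 0 in a whole group, and their part in the result for Mmp12 and Gpnmb was not tested.

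The insulin-like growth factor axis was represented by 2 of its 15 tested members at every stage, the binding proteins Igfbp3 and Igfbp5, which bind the growth factors outside the cell. Igfbp3 (chr11:7206086-7215498) was at 382, 439 and 405 CPM at D4 against 42.6, 38.6 and 40.6 at 10.5 dpp, at 662 and 354 at D16 against 3.94, 6.40 and 4.35 at 22.5 dpp, and at 345, 350.1 and 213 at D30 against 5.23 and 3.82 at 36.5 dpp. The cultures stayed between 213 and 662 CPM while the controls fell with age, and the effect of 3.33 ± 0.28 (D4), 6.69 ± 0.33 (D16) and 6.07 ± 0.38 (D30) differed between stages (adjusted p = 0.000101, edgeR). Igfbp5 behaved alike, with 61.9, 62.0 and 56.5 CPM at D30 against 0.440 and 0.584 at 36.5 dpp and stage values of 2.52 ± 0.21 (D4), 4.85 ± 0.24 (D16) and 6.86 ± 0.33 (D30). The 4 libraries at 6.5 dpp held 43.1 to 91.5 CPM of Igfbp3, below every culture, and 16.7 to 72.1 of Igfbp5, a range that includes its D30 cultures. Igf1 itself was 0.83 ± 0.25 at D4 (adjusted p = 0.0544), 0.79 ± 0.28 at D16 and 2.24 ± 0.31 at D30 and was not called at every stage.

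Gpx3, the secreted glutathione peroxidase and the only one of 15 antioxidant enzymes tested to be called at every stage, was at 102, 125 and 132 CPM at D4 against 12.96, 12.3 and 12.7, at 157 and 85.8 at D16 against 4.47, 4.78 and 4.52 and at 119, 139.5 and 119 at D30 against 16.2 and 7.33. Its average was 3.79 ± 0.18, whereas the list's median was 0.28. Wnt4, a secreted signal of the developing gonad, was at 22.4, 27.5 and 28.7 CPM at D4 against 4.22, 5.86 and 4.02, at 7.39 and 14.2 at D16 against 0.735, 1.204 and 0.993 and at 34.7, 27.8 and 50.1 at D30 against 0.396 and 0.351, and its effect rose from 2.48 ± 0.29 to 6.65 ± 0.45 (difference between stages, adjusted p = 0.000175, edgeR).

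Of 19 tested endothelial markers Kdr and Tie1, receptors for vessel growth signals, were higher at every stage, while 4 rose and 3 fell at D4, 14 rose and 1 fell at D16, and 11 rose and 2 fell at D30. Kdr was at 81.4, 73.3 and 62.1 CPM at D4 against 25.7, 37.1 and 27.4, at 36.6 and 33.9 at D16 against 13.03, 15.97 and 10.2 and at 37.0, 27.3 and 29.4 at D30 against 9.23 and 8.18, an average of 1.51 ± 0.13. Tie1 lost its D4 call in 3 of the 16 fits with a library left out. Pecam1, a junction protein of all endothelium, missed the rule at D4 alone (0.85 ± 0.22) and reached 3.20 ± 0.28 at D30. The summed endothelial level was 423 to 503 CPM at D4 and 393 to 457 at 10.5 dpp, but 316 to 418 at D30 and 123 to 168 at 36.5 dpp. Gpihbp1, which anchors lipoprotein lipase to capillary endothelium, was at 10.8, 16.3 and 21.0 CPM at D4, 70.4 and 16.7 at D16 and 19.97, 29.4 and 12.1 at D30 against 1.14, 1.73 and 0.942, 0.118, 0.190 and 0.171 and 0.791 and 0.623 in the controls of those ages, an average of 5.52 ± 0.37. D16 replicate 1 was the highest of all.

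A few of the largest effects belonged to genes that the controls hardly expressed. Serpinb11, an intracellular serpin of epithelia, had no count at 10.5 dpp and 2.22, 2.01 and 1.72 CPM at D4, at least 102-fold higher (against 3 counts over the group). At D16 it was at 5.32 and 4.62 CPM and at D30 at 2.88, 5.61 and 2.47, against a single count in all libraries of 22.5 dpp and a single count in those of 36.5 dpp. Gkn1, a secreted protein known from the gastric mucosa, was at 1.70, 3.82 and 3.56 CPM at D4, 34.6 and 8.99 at D16 and 12.6, 25.3 and 7.41 at D30 against at most 3 counts in any control library, and D16 replicate 1 was the highest. Clca2, a protein of the chloride channel accessory family, was below 0.5 CPM in all controls and between 5.31 and 18.7 CPM in all cultures, with an average of 5.17 ± 0.23 (adjusted p = 5.39e-09, edgeR). All 3 genes kept the call in every fit with a library left out. They lost it when the 6.5 dpp and slow-frozen libraries entered the fit. Of the 6.5 dpp libraries, fresh replicate 1 held 2.701 CPM of Serpinb11, 10.2 of Gkn1 and 17.9 of Clca2, whereas the other 4 held at most 0.461 CPM of any of the 3.

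The androgen pathway held a lower gene with a large and even effect. Cyp17a1 (chr19:46667165-46673000), which converts progestins to androgens in Leydig cells, was at 10.1, 13.01 and 16.1 CPM at D4 against 287, 325 and 289 at 10.5 dpp, at 14.3 and 12.0 at D16 against 388, 253 and 347 at 22.5 dpp, and at 28.3, 32.0 and 46.2 at D30 against 1356 and 1100.0 at 36.5 dpp. All 8 cultures were below all 8 controls and below 4 libraries of the starting tissue (113 to 242 CPM at 6.5 dpp), but above the 6.5 dpp library set aside below. The average was -4.76 ± 0.17 (adjusted p = 1.48e-09, edgeR) and the stage values were -4.52 ± 0.26 (D4), -4.65 ± 0.31 (D16) and -5.11 ± 0.28 (D30) (difference between stages, adjusted p = 0.291, edgeR). Other steps of the pathway had smaller or uneven effects. Star, which carries cholesterol into mitochondria, was at 39.4, 40.3 and 31.8 CPM at D4 against 95.6, 73.3 and 87.3, at 33.4 and 48.4 at D16 against 95.3, 55.1 and 102 and at 99.5, 80.6 and 112 at D30 against 155 and 174. It was lower in every culture than in every control of its age, but its D30 effect of -0.76 ± 0.25 missed the 2-fold limit, and its average was -0.999 ± 0.14. Cyp11a1, the side-chain cleavage enzyme, was -0.77 ± 0.33 at D4 (adjusted p = 0.179), -2.58 ± 0.41 at D16 and -2.89 ± 0.37 at D30 (edgeR). Hsd17b3, the last enzyme of testosterone synthesis, was at 2.52, 4.05 and 3.35 CPM at D30 against 135 and 77.0 at 36.5 dpp (-5.00 ± 0.26), but at D16 its effect was -0.79 ± 0.24. Hsd3b6, the isoform of adult Leydig cells, turned over, from 2.52 ± 0.51 at D4 (3.17, 5.35 and 4.80 CPM against 0.522, 1.27 and 0.572 at 10.5 dpp) to -3.09 ± 0.51 at D30.

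Of the 14 tested genes of androgen synthesis and Leydig cells, 2 fell at every stage (Cyp17a1 and Insl3), none rose at every stage, and the median was -0.89. Insl3, the peptide hormone of mature Leydig cells, was at 1.40, 1.07 and 0.907 CPM at D4 against 5.78, 5.79 and 6.09, at 2.75 and 4.58 at D16 against 6.56, 19.8 and 35.0 and at 3.97, 16.4 and 5.31 at D30 against 258 and 238. The groups did not overlap, but the call was lost in 7 of the 16 fits with a library left out, with an adjusted p of 0.0622 without D16 replicate 1. Hsd3b1 averaged -0.77 ± 0.15 with no stage past the 2-fold limit. Nr5a1, a transcription factor of steroidogenic and Sertoli cells, averaged 0.84 ± 0.13, and Lhcgr, the receptor of luteinising hormone, -0.73 ± 0.30 (adjusted p = 0.0525, edgeR), so neither had an average near that of Cyp17a1.

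Of the 12 lower genes named for the size of their effect, Cd209f, Ccl24, Cbr2 and Vsig4 are known from resident tissue macrophages. They come from no list, and of the 20 listed macrophage markers F13a1 alone fell at every stage. Cd209f, a lectin receptor, was at 0.0216, 0.0436 and 0 CPM at D4, 0 in both D16 libraries and 0.1202, 0.529 and 0.138 at D30, against 3.75, 3.84 and 3.43, 9.79, 14.6 and 10.8 and 13.02 and 5.38 in the controls, at least 367-fold lower at D16 (against 3 counts over the group). Vsig4, a complement receptor of resident macrophages, was at 0.0216, 0.109 and 0.0519 CPM at D4 against 1.26, 1.63 and 1.08, at 0.578 and 1.17 at D16 against 9.64, 13.9 and 7.60 and at 0.312, 0.503 and 2.10 at D30 against 6.46 and 2.69, and it lost its D30 call without 36.5 dpp replicate 1 (-1.45, adjusted p 0.118, edgeR). Cbr2, a carbonyl reductase, averaged -3.71 ± 0.29. Ccl24, a chemokine for eosinophils, had a single count over the 3 D4 libraries against 1.93, 2.74 and 1.95 CPM at 10.5 dpp, a ratio of 364 (exact interval 64.9 to 14400, counting error only). F13a1, the A chain of coagulation factor XIII, carried by macrophages, was at 0.733, 0.807 and 0.739 CPM at D4 against 29.6, 42.0 and 28.5 and at 5.24, 8.66 and 19.9 at D30 against 23.8 and 27.9. Its effect shrank from -5.45 ± 0.46 at D4 to -1.19 ± 0.42 at D30 (difference between stages, adjusted p = 0.00051, edgeR), and the D30 call was lost without D30 replicate 1, D30 replicate 2 or 36.5 dpp replicate 2 (values from -0.852 to -1.06), and with library size alone as the scale. Adgre1, the macrophage antigen F4/80, took both directions, with -2.49 ± 0.20 at D4, -0.07 ± 0.21 at D16 and 1.42 ± 0.22 at D30.

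Red cell globins were close to absent from the explants. Hbb-bt, an adult beta globin, was at 0.0647, 0.0655 and 0.0259 CPM at D4 against 18.1, 22.3 and 17.9 at 10.5 dpp, had no count at D16 against 5.82, 6.36 and 7.71 CPM at 22.5 dpp, and was at 0, 0 and 0.0231 CPM at D30 against 3.39 and 0.390 at 36.5 dpp. At D16 it was at least 199-fold lower (against 3 counts over the group). Hbb-b1 and Hba-a1 showed the same, at no more than 2.16 and 0.349 CPM in any culture and at least 5.96 and 2.73 CPM in any control. The globin genes are near-identical pairs whose reads could be split in counting. Hba-a1, Hbb-bt and Slc4a1, the band 3 anion exchanger of red cells, were the 3 of 6 tested red cell markers that fell at every stage, and Slc4a1 lost the call in 7 of the 16 fits with a library left out, turning to 0.367 at D30 without 36.5 dpp replicate 2.

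Of the remaining named lower genes, Kcnk3, an acid-sensitive potassium channel, was at 2.74, 3.45 and 3.85 CPM at D4 against 48.2, 48.5 and 44.4, at 0.746 and 1.09 at D16 against 9.41, 13.2 and 10.3 and at 0.793, 0.856 and 0.646 at D30 against 3.17 and 7.33, an average of -3.38 ± 0.19. The controls declined with age, and the groups did not overlap at any stage. Syt15, a synaptotagmin, averaged -3.41 ± 0.18, and Miox, the enzyme that opens the inositol ring, -3.97 ± 0.29. Miox stood at 5.11 to 12.6 CPM in the 4 libraries at 6.5 dpp that were not set aside below. The controls were already below these libraries at 10.5 dpp (1.35, 1.80 and 1.19 CPM) and the cultures further below (0.151, 0.305 and 0.207 CPM at D4). The 6.5 dpp library set aside lay under all of these values.

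Most genes called at every stage lie outside the 35 lists used here: the lists hold 52 of the 272 higher and 6 of the 91 lower genes. Of the 23 lists of processes, the acute phase, wound matrix, cytokine, complement, immediate early and hypoxia lists had the highest medians, and androgen synthesis the lowest. The lists were chosen with earlier results of these data known, so this order is a description only. Immediate early genes had 3 of 20 tested members called (Junb, Ier3 and Gadd45b), of which Junb and Gadd45b fell below the 2-fold limit at D16 without D16 replicate 2 (0.967 and 0.81). Single members were called in the lists of metal and iron handling (Tfrc, the transferrin receptor), p53 targets (Fas, a death receptor), glucocorticoid targets (Sgk1), clock genes (Bhlhe40) and the ATF4 response (Trib3). Fas lost its D16 call without D16 replicate 2 (0.979, adjusted p 0.133) or 22.5 dpp replicate 1 (adjusted p 0.0586, edgeR), and without the 3 libraries that stand apart. No member was called at every stage among 20 interferon genes, 19 NRF2 targets, 17 genes of lipid storage, 14 of the cell cycle, 13 imprinted growth genes, 11 heat shock genes and 10 of androgen reduction, which for lists of this size is near the background of 1.42% higher and 0.476% lower. Without the 3 libraries that stand apart (D16 replicate 2, 22.5 dpp replicate 2 and D30 replicate 3) 4 interferon genes were higher at every stage. With the 6.5 dpp and slow-frozen libraries in the fit the calls at every stage went from 8 to 4 in the wound matrix list, from 6 to 3 in the cytokine list, from 3 to 1 in the complement list and from 8 to 7 in the hypoxia list. With only the slow-frozen D30 library added these lists had 8, 5, 3 and 8 calls. Some of these lists moved at single stages: 13 of the 20 interferon genes rose at D30 but none at D16, where the median was -0.76, and imprinted growth genes had a median of -0.65 at D4 and 1.87 at D30.

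**Figure D3:**
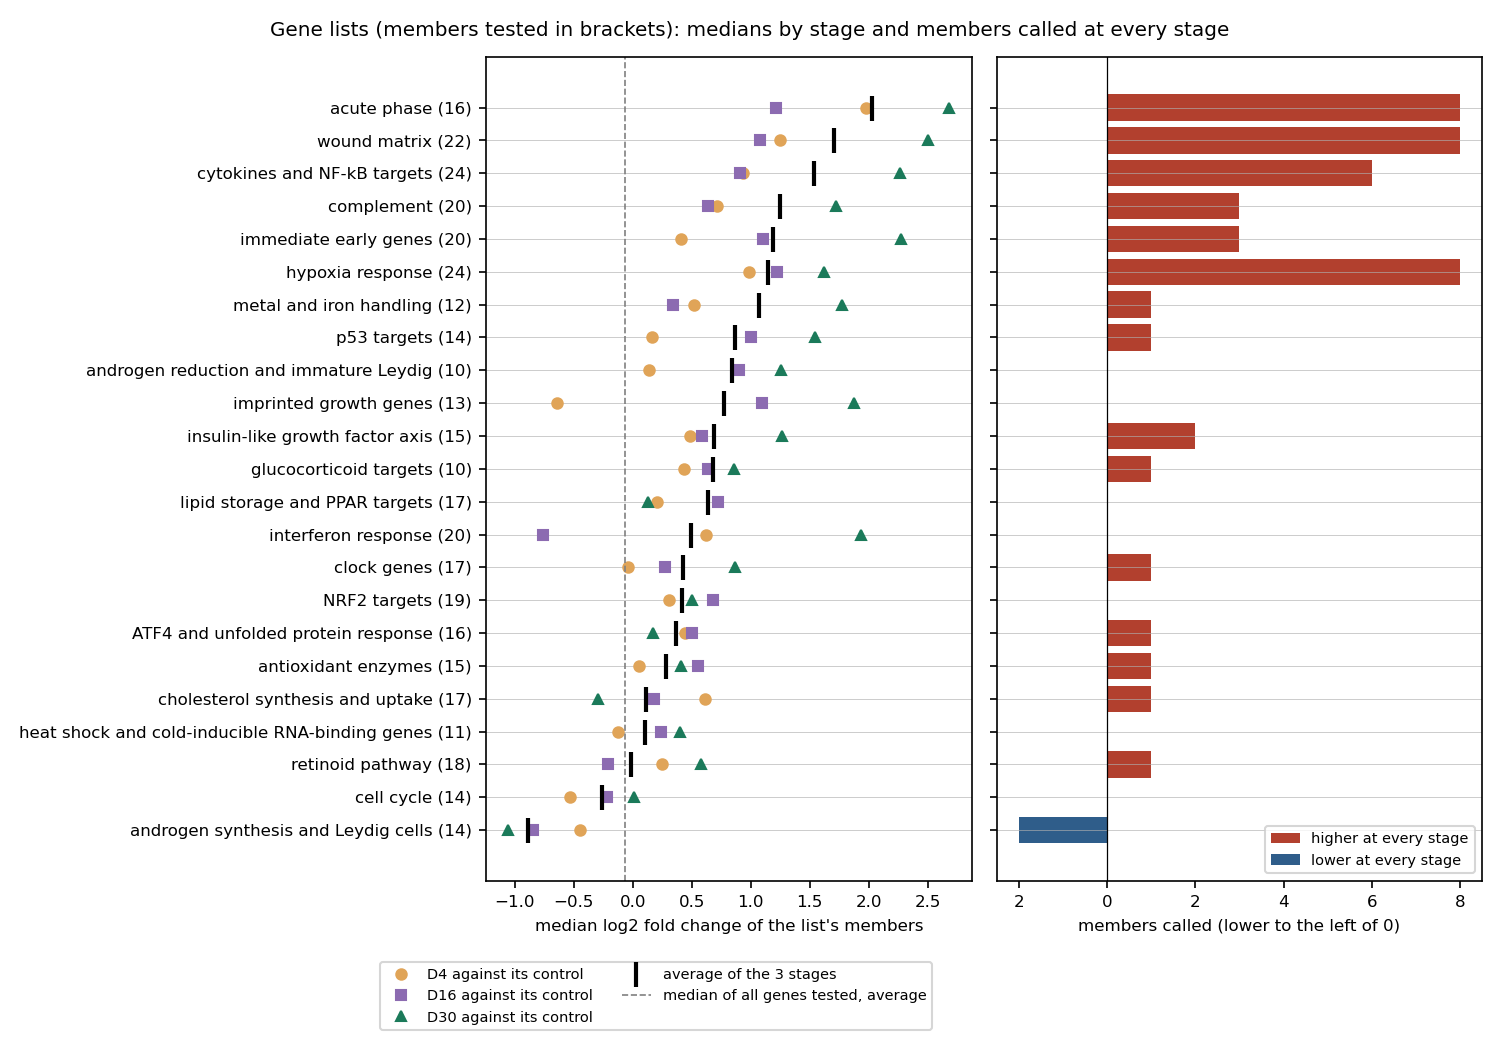
Left, median log2 fold change of the tested members of each process list at D4, D16 and D30 and in the average (black bar), with a dashed line at the median of all genes tested (-0.07); right, number of members higher (red) or lower (blue) at every stage. The acute phase, wound matrix and hypoxia lists have 8 members each called higher, and the androgen synthesis list is the only one with members called lower (2).

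Marker lists of cells show what else moved with the contrasts. Markers of spermatogonia, spermatocytes, Sertoli cells, myoid cells and macrophages were all detected in every group. Late spermatid markers were also detected in every group, with sums of 92.3 to 101 CPM at D4 and 10.5 dpp. The paper places 10.5 dpp at the lepto-zygotene spermatocyte stage, so these sums do not by themselves show spermatids. None of the 14 spermatogonial, 15 spermatocyte, 15 late spermatid and 11 Sertoli cell markers tested was called at every stage in either direction, against 1.42% and 0.476% of all genes. Of the late spermatid markers 3 were lower at every stage without the 3 libraries that stand apart and 1 with DESeq2. At single stages, all 15 late spermatid markers were lower at D30, 8 Sertoli cell markers were higher at D16 and 10 at D30, and 5 spermatocyte markers were higher at D4 while 4 were lower at D16 and 4 at D30. Of all genes 25.5% were higher and 29.6% lower at D30, so the count of lower spermatocyte markers there is near the share of all genes. Of the spermatogonial markers 8 were higher and 1 lower at D30 (median 1.56), with 1 higher at D4 and 2 at D16. Their sums were 1503 to 1727 CPM at D4 and 1705 to 1912 at 10.5 dpp, and 1203 to 1673 at D30 and 1319.6 to 1513 at 36.5 dpp. The part of these markers in the D16 and D30 values of the genes above was not tested. Other cell types gave 1 call each: Klrb1c of 8 lymphocyte markers, Lrrn4 of 6 mesothelium markers and Fabp4 of 6 adipocyte markers were higher, none of the 11 myoid markers was called at every stage, and the epididymis list had 1 member tested and none called. These single genes do not stand for their lists. The average was positive for 1 of the 8 lymphocyte markers (median -1.035), 3 of the 6 mesothelium markers (median 0.19) and 2 of the 6 adipocyte markers (median -1.33). Fabp4 lost its D30 call without D30 replicate 2 (0.757) or 36.5 dpp replicate 2 (0.812), and lost the call with RLE factors, DESeq2 and a median of at least 1 CPM in a group. At D30, 8 myoid markers were higher and 1 lower (median 1.39), while at D16 1 was lower and at D4 none was called (median -0.54). Their sum was 796 to 1044 CPM at D4 and 1391 to 1471 at 10.5 dpp, and 601 to 630 at D16 and 619 to 832 at 22.5 dpp. It was 610 to 949.5 at D30 and 654 to 772 at 36.5 dpp, so the sum did not rise as the count of markers did. The sum of the epididymis markers was 15.2 to 41.8 CPM at D30 but 269 to 642 at 36.5 dpp, and its part in the D30 contrast was not tested. Of the 8 listed epididymis markers Cst8 alone passed the expression filter, with a log2 fold change of -4.09 at D30. The sum may rest mostly on that gene and does not by itself show epididymal tissue.

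**Figure D4:**
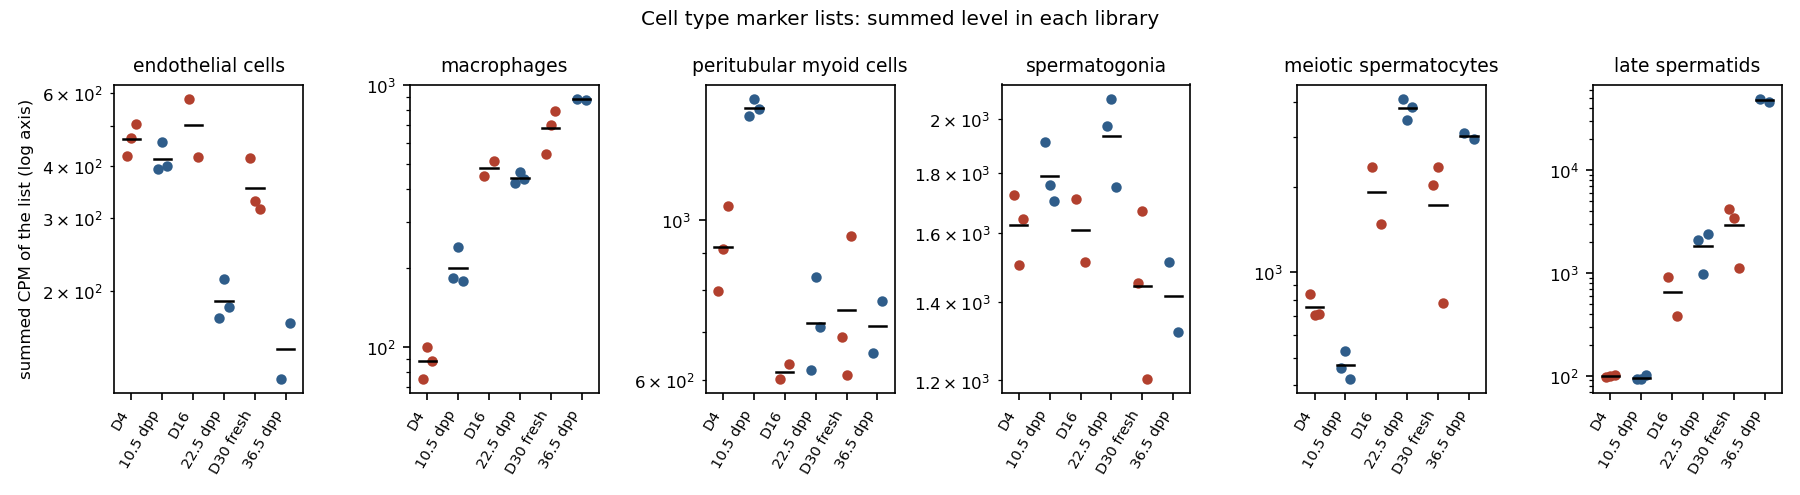
Summed level in CPM (log axis) of 6 lists of cell type markers, 1 point per library, red for cultures and blue for age-matched testes, with a bar at the group mean. Late spermatid markers are level at D4 and 10.5 dpp (92.3 to 101 CPM) and far apart at D30 (up to 4236) and 36.5 dpp (from 46400), endothelial markers are higher in culture at D16 and D30, and macrophage markers are lower at D4.

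An average over the stages can hide an effect that turns over. The effect of culture differed between the 3 stages for 9541 genes, 50% of those tested (F test over the contrasts, adjusted p under 0.05, edgeR), and 323 genes (1.69%) were called higher at a stage and lower at another. Among these, 77 were higher at D4 and lower at D30 and 74 the reverse, with no call at D16, and 41 were higher at D4 and lower at both later stages. Rgs17, a regulator of G protein signalling, was at 0.582, 0.502 and 0.454 CPM at D4 against 12.3, 10.4 and 8.70 at 10.5 dpp and at 3.56 and 4.41 at D16 against 0.235, 0.423 and 0.171 at 22.5 dpp, so that effects of -4.35 ± 0.36 and 3.79 ± 0.40 left an average of -0.15 ± 0.22. Cxxc5, a zinc finger protein of the CXXC family, was 1.15 ± 0.16 at D16 and -2.15 ± 0.16 at D30, and Gipr, the receptor of an incretin hormone, 2.43 ± 0.27 at D4 and -3.13 ± 0.28 at D30. Srxn1, the enzyme that repairs peroxiredoxins, was higher in culture at D4 and D16 (1.23 ± 0.14 and 1.17 ± 0.15) and lower at D30 (-1.40 ± 0.15), where the 36.5 dpp testes held 66.4 and 67.6 CPM. Fcrls, a receptor-like gene of macrophages and microglia, followed Adgre1, with -3.05 ± 0.25 at D4 and 1.98 ± 0.28 at D30.

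**Figure D5:**
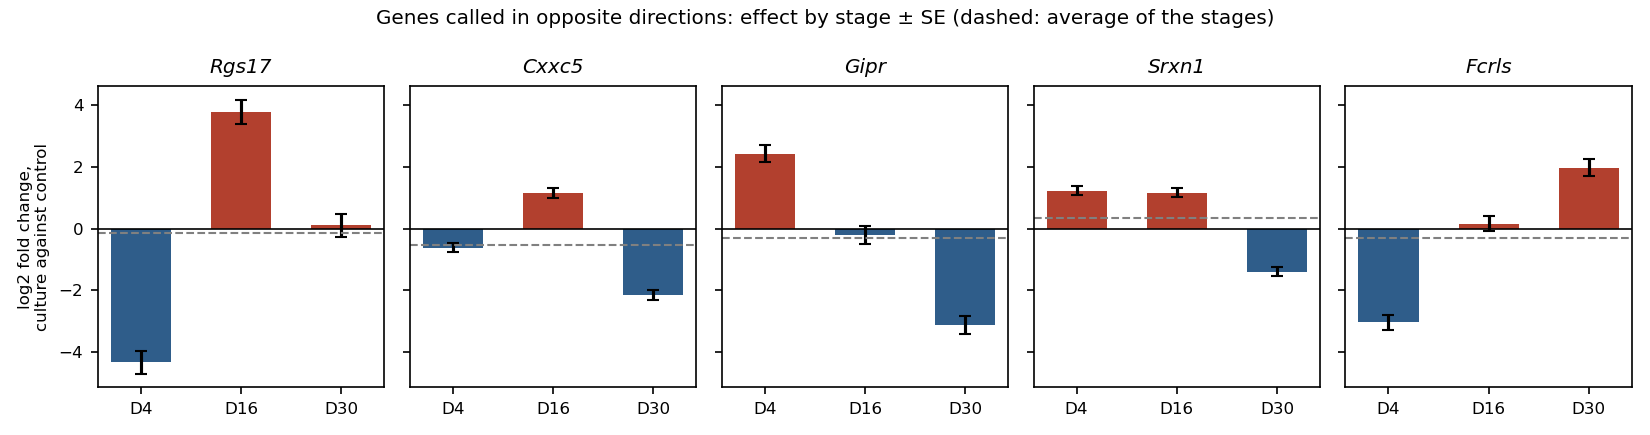
Log2 fold change of culture over age-matched testis (y axis, ± SE) at D4, D16 and D30 for 5 genes called in opposite directions, red bars above and blue bars below 0, with the average of the stages as a dashed line. The averages lie between -0.54 and 0.33 although single stages reach -4.35 and 3.79 (both Rgs17).

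The 6.5 dpp libraries give the level from which the cultures began. The library labelled 6.5 dpp fresh replicate 1 stood apart from the other 4 at that age: it was above all of them for 213 of the 272 higher genes and below all of them for 55 of the 91 lower genes. It held 457 CPM of Igfbp3, 8.37 of Cyp17a1, 3.75 of Saa3 and 0.107 of Miox, outside the ranges given here for the other 4. Counts are therefore given with and without it. The genes were selected for their levels in culture, and the same counts were not taken over all genes tested. All counts against the 6.5 dpp libraries are thus descriptions of the selected genes and no evidence beyond the rule. Against the mean of the other 4 libraries, all 3 culture groups were at least 2-fold above the starting level for 170 of the 272 higher genes, some culture group for 69 and none for 33. With all 5 libraries these numbers were 95, 133 and 44. For the 91 lower genes all 3 groups were at least 2-fold below the starting level for 42, some for 38 and none for 11 (40, 44 and 7 with all 5). Since 3 of the 4 libraries are of slow-frozen tissue, the same counts were taken against fresh replicate 2 alone, a choice made after seeing the data, and were 169, 78 and 25 for the higher and 49, 34 and 8 for the lower genes. For Saa3 the explants left the starting level (0.0552 to 0.174 CPM in the 4 libraries). For 13 of the 272 higher genes all 3 control groups were at least 2-fold below the starting level of the 4 libraries, and for 5 of these no culture group was 2-fold above it. Cfi moved on both sides: the D4 explants (48.7, 43.2 and 42.3 CPM) lay above the 6.5 dpp libraries (15.4 to 24.1 CPM) and the 10.5 dpp testes (22.1, 20.3 and 22.5 CPM) within their range, whereas by 36.5 dpp the testes had fallen to 0.660 and 0.584 CPM. A further library, cultured to D30 after controlled slow freezing, was in no fit. It lay above both 36.5 dpp libraries for 271 of the 272 higher genes and below both for 89 of the 91 lower genes. The rule had selected these genes by D30 against the same 36.5 dpp libraries, and the share over all genes tested was not counted. The counts are therefore a description and add no evidence.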

How the data were processed

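RNA of 16 fresh mouse libraries was sequenced as single-end reads of 50 bases. Per the labels, the authors demultiplexed with bcl2fastq 2.17.1.14, aligned with STAR 2.7.3a to GRCm38 (mm10) and counted with HTSeq 0.12.4, and deposited raw read counts per gene. The strand setting of the counting is not given in the sources used here. The labels do not say whether replicates came from separate animals. The paper calls them biological replicates but names no animal for each library. The p-values therefore measure the spread between these samples, part of which may be technical. Of the gene IDs, 27373 of 27466 matched GRCm38.p6 names, and the others held 0.0196% of the counts.

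From the counts, edgeR 4.0.16 (R 4.3.3) was used with TMM factors, its expression filter and a quasi-likelihood fit of the 6 groups with no 6.5 dpp library, which left 19098 genes. The 3 contrasts of culture and age-matched testis, their mean and an F test of their differences were tested, with Benjamini-Hochberg adjustment over all genes. CPM levels use TMM-scaled totals, and count ratios have exact intervals that cover counting error only. DESeq2 1.42.0 was an alternative. Total counts were 31634658 to 69029328 per library. The fit was tested on simulated data.

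Named genes were the 12 higher and 12 lower genes with the largest smallest stage effect among those with non-overlapping groups and at least 1 CPM, the 6 opposite genes with the smallest p, members of the lists, and genes the study names. The members and lists were chosen with earlier results of these data known. Some genes that these rules select are not reported here. Promoters are those of RefSeq.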

Additional observations from a re-analysis of the deposited data

Results flagged for a closer look

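The effect of culture differed between the 3 stages by the edgeR F test (adjusted p under 0.05) for 9541 genes, and 323 genes were called in opposite directions at different stages. The named genes below had an adjusted p of 0.001 or less in that test.

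Rgs17, Cxxc5, Gipr and Srxn1 were selected for this test and each had an adjusted p of 7.34e-06 (edgeR), with 8.69e-06 for Fcrls. Of the genes higher at every stage, the sizes of the effect differed for Cfi (7.34e-06), Igfbp5 (1.35e-05), Serpina3n and Ccn5 (9.88e-05 each), Igfbp3 (0.000101), C3 (0.000114), Vldlr (0.000135), Wnt4 (0.000175) and Fst (0.000513), and of those lower at every stage for F13a1 (0.00051), all adjusted p of edgeR. Ccn5, a matricellular protein, fell from 6.41 ± 0.48 at D4 to 1.13 ± 0.39 at D16 on the log2 scale, while its controls went from 0.0967, 0.0721 and 0.201 CPM at 10.5 dpp to 3.76, 4.10 and 3.53 at 22.5 dpp.

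Of the genes not called at every stage, the adjusted p of edgeR was 9.08e-06 for Adgre1, 9.26e-06 for Hsd17b3 and for Lcn2, 1.47e-05 for C7 and for C4b, 1.78e-05 for Il33, 0.000158 for Hsd3b6 and 0.000278 for Pecam1. Lcn2, the iron-binding lipocalin, was at 4.31, 6.18 and 7.43 CPM at D4 against 0.561, 0.648 and 0.556 at 10.5 dpp (3.35 ± 0.28) but at 117, 144 and 92.4 at D30 against 455 and 381 at 36.5 dpp (-1.83 ± 0.27). The causes were not tested.

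The library cultured to D30 after controlled slow freezing, outside the comparisons, was above both 36.5 dpp libraries for 271 of the 272 genes higher at every stage and below both for 89 of the 91 lower genes, and at least 2-fold from their mean for 263 and 86. As these genes were selected against the same 36.5 dpp libraries, the counts add no evidence.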

How the results depend on the processing

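The average effect counted 286 higher and 188 lower genes, the rule of every stage 272 and 91, opposite directions 323 and a difference between stages 9541. Of the alternative settings, these moved a count by more than 1.5 times. Library size alone gave 114 lower genes on average and DESeq2 450. A fit with the 6.5 dpp and frozen libraries gave 107 higher and 20 lower genes at every stage, 65 opposite genes and 5316 with a difference between stages. With only the slow-frozen D30 library added, and no 6.5 dpp library, no count moved by that much (272 and 82 at every stage, 302 opposite). A limit of 2-fold on the average gave 1705 and 986 genes, a 4-fold limit at every stage 72, 27 and 58 (opposite), and the adjusted p alone 491 higher and 674 opposite. The share of higher genes among those called on average was 60.3%, against 78.7% with library size alone, 36.7% with DESeq2, 51.4% with RLE factors and 37.5% without D16 replicate 1. The causes were not tested.

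Leaving out each library in turn gave 270 to 326 higher and 140 to 516 lower genes on average (516 without D16 replicate 1), 216 to 303 higher and 45 to 112 lower at every stage (45 without D16 replicate 2 and 56 without D4 replicate 1), 200 to 362 opposite genes (200 without 10.5 dpp replicate 3, 208 without 10.5 dpp replicate 1 and 215 without D4 replicate 1) and 7967 to 10379 with a difference between stages. In all of these fits 144 of the 272 higher and 27 of the 91 lower genes kept their call. Without the 3 libraries that stand apart (D16 replicate 2, 22.5 dpp replicate 2 and D30 replicate 3, chosen after seeing the data) 274 and 108 genes were called at every stage. With the replicate number as a block these were 260 and 80, and 283 and 171 on average. Same-numbered deviations correlated at 0.206, 0.0268 and -0.0125 for D4, at 0.53 and 0.664 for D16 and at -0.231 and -0.478 for D30. Unlike-numbered ones ran from -0.134 to 0.118 for D4. In a group of 2 libraries the deviations mirror each other, so the D16 and D30 values cannot tell whether the numbers pair the samples. No named gene with an adjusted p under 0.05 in the main fit (edgeR) reversed its average effect. A change of sign was not counted for genes above that limit, such as those with an average near 0. For 93 of the 101 named genes no setting was counted as weaker or stronger, meaning a move across that limit in the same direction.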

Other observations

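Of the genes called at every stage, 220 higher and 85 lower ones are in none of the lists, and those below were chosen from them after their values were seen, so they carry no weight beyond their values. Lower genes known from resident macrophages of other tissues included the lectin receptor Cd209g, at 2.35, 3.06 and 2.67 CPM at 22.5 dpp against 0.0241 and 0 at D16, the phosphatidylserine receptor Timd4, at 2.85, 3.70 and 2.71 against 0.169 and 0.0203, and the transcription factor Spic, which averaged -2.43 ± 0.22. Lgals3, the lectin galectin 3, went the other way at 9.51, 14.4 and 12.1 CPM at D4 against 1.47, 1.37 and 1.47 at 10.5 dpp and 18.5, 26.6 and 30.4 at D30 against 1.98 and 1.32 at 36.5 dpp, and Atp6v0d2, a subunit of the proton pump of macrophage-lineage cells, was at 2.02 and 2.43 CPM at D16 against 0.0588, 0.0845 and 0 at 22.5 dpp. Vessel genes also took both directions. Esm1 and Dll4, genes of sprouting endothelium, averaged 3.90 ± 0.28 and 2.51 ± 0.18, whereas the apelin receptor Aplnr was at 0.431, 0.524 and 0.544 CPM at D4 against 8.94, 10.8 and 8.16 at 10.5 dpp and Car4, a membrane carbonic anhydrase, averaged -4.34 ± 0.23. Dll4 lost its D4 call without 10.5 dpp replicate 1 or 3.

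Fst, the activin antagonist follistatin, was at 27.3, 24.8 and 24.3 CPM at D4 against 7.35, 6.41 and 6.64, at 24.2 and 23.6 at D16 against 2.71, 3.06 and 1.99 and at 17.4, 22.1 and 28.5 at D30 against 1.45 and 1.01. Cyp21a1, the steroid 21-hydroxylase, had effects of -3.96 ± 0.39 at D4 and -1.15 ± 0.34 at D30, where it lost the call without D30 replicate 3 (-0.827) or 36.5 dpp replicate 2 (-0.984, adjusted p 0.056, edgeR), and Bhmt, an enzyme of homocysteine metabolism, was at 2.00, 2.37 and 1.27 CPM at D30 against 57.1 and 51.1 at 36.5 dpp. By symbol, 5 of 9 tested Cxcl chemokines and 4 of 17 tested Ccl chemokines were higher at every stage, and Ccl24 was lower, against 1.42% and 0.476% of all genes tested. Unlike the genes above, these counts include listed genes already described (Cxcl1, Cxcl2, Cxcl10 and Ccl2).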
